A study of Vitis amurensis with 6 samples.

Results

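Stilbene synthases are the enzymes with which grapevines make resveratrol, and the gene family that encodes them was followed here in leaves of the wild grape Vitis amurensis before and after a short chill. Its members were taken from a list of identifiers by their place in the genome, a list proposed with results of these libraries known: the tandem array of chromosome 16 (scaffold field 0100, running numbers g00750 to g01200) and the smaller cluster of chromosome 10 (scaffold field 0042, g00840 to g00930). The list names 47 genes. Of these, 42 were among the 31845 identifiers of the expression table, 33 from the array and 9 from the cluster, and the other 5, all from the array, were not analysed here.

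Stilbene synthases are plant polyketide synthases that join p-coumaroyl-CoA, the product of the phenylpropanoid pathway, to malonyl-CoA units and close the chain to resveratrol. Chalcone synthase, from which they are thought to have evolved, uses the same substrates and opens the way to flavonoids instead. In Vitis vinifera the family has grown by tandem duplication into arrays of near-identical copies, and its transcripts are known to accumulate after downy mildew, ultraviolet light and wounding, which makes resveratrol and its derivatives the classical phytoalexins of grape leaves. MYB factors are known activators of these genes in Vitis vinifera.

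RNA was sequenced from leaves of wild-type, one-month-old Vitis amurensis plants grown in vitro, a species noted for its winter hardiness. The cold group (3 libraries) was held for 2 h at 4 °C in an incubator chilled beforehand, under constant light of about 100 µmol per square metre and second, and the control group (3 libraries) was kept at 26 °C under the same light. All plants had been subcultured monthly on B5 medium with 0.2 mg per litre of the auxin IBA. A photoperiod of 16 h light and 8 h dark is given for all 6 libraries. Nothing in the labels ties the libraries to different plants or culture vessels. The p-values thus reflect only how far these samples spread, a spread that may be technical. The time that passed, the move and the temperature cannot be told apart.

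Levels are given in FPKM, the reads of a gene per kilobase of its length, scaled to the depth of the library, as the authors deposited them. The values kept the trace of whole reads, from which the number of reads behind each value, the length assumed for each gene and the library totals were worked out. Totals ran from 16437001 to 21217704 reads, and every cold library was deeper than every control library. Depth of a library refers to this total. The reads recovered for genes made up 99.4% to 99.6% of the totals, and the number of reads sequenced is not given here. Near-identical copies share sequence, and the sources used here do not give the way in which reads matching several copies were assigned. The level of a single copy is therefore uncertain, and sums over copies are given beside it. Reads left out because they match several copies would be missing from the sums too. The identifiers belong to a gene set of Vitis vinifera, so a read of a Vitis amurensis copy may also have been assigned to a neighbour. The tissue is a bulk leaf sample, in which more cells that express a gene and more transcript per cell cannot be told apart.

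In warm leaves few reads were counted for the family. No library held a read of 8 of the 42 genes: VIT_210s0042g00840, g00850, g00860, g00880 and g00910 of the chromosome 10 cluster, and VIT_216s0100g00760, g01060 and g01080 of the array. With 3 reads taken as the floor, a count of 0 among the 109117712 reads of all 6 libraries allows each of them up to 0.0275 RPM of counted reads. RPM is the reads of the gene scaled by the library total, without its length. Reads that match several copies may have been dropped or counted for another copy, so a count of 0 does not show that a copy was silent. A further 10 genes had reads after cold and none in any control library. The other 24 had control reads, but no more than 14 in any single control library, and VIT_216s0100g00950 alone had a control mean above 1 FPKM. The summed level of all 42 genes was 3.72, 2.45 and 5.96 FPKM in control libraries 1, 2 and 3, from 73, 53 and 99 reads.

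After 2 h at 4 °C the summed level was 77.9, 40.2 and 15.5 FPKM in cold libraries 1, 2 and 3, from 1734, 922 and 410 reads. Every cold library lay above every control library, but the cold libraries themselves were spread over a 5.02-fold range. The group means were 4.04 ± 1.77 FPKM in control and 44.5 ± 31.4 FPKM in cold (SD, n = 3 each), an 11.02-fold difference. Without cold library 1 it was 6.89-fold. No p is given for sums over the family, because its members were proposed with results of these libraries known.

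**Figure D1:**
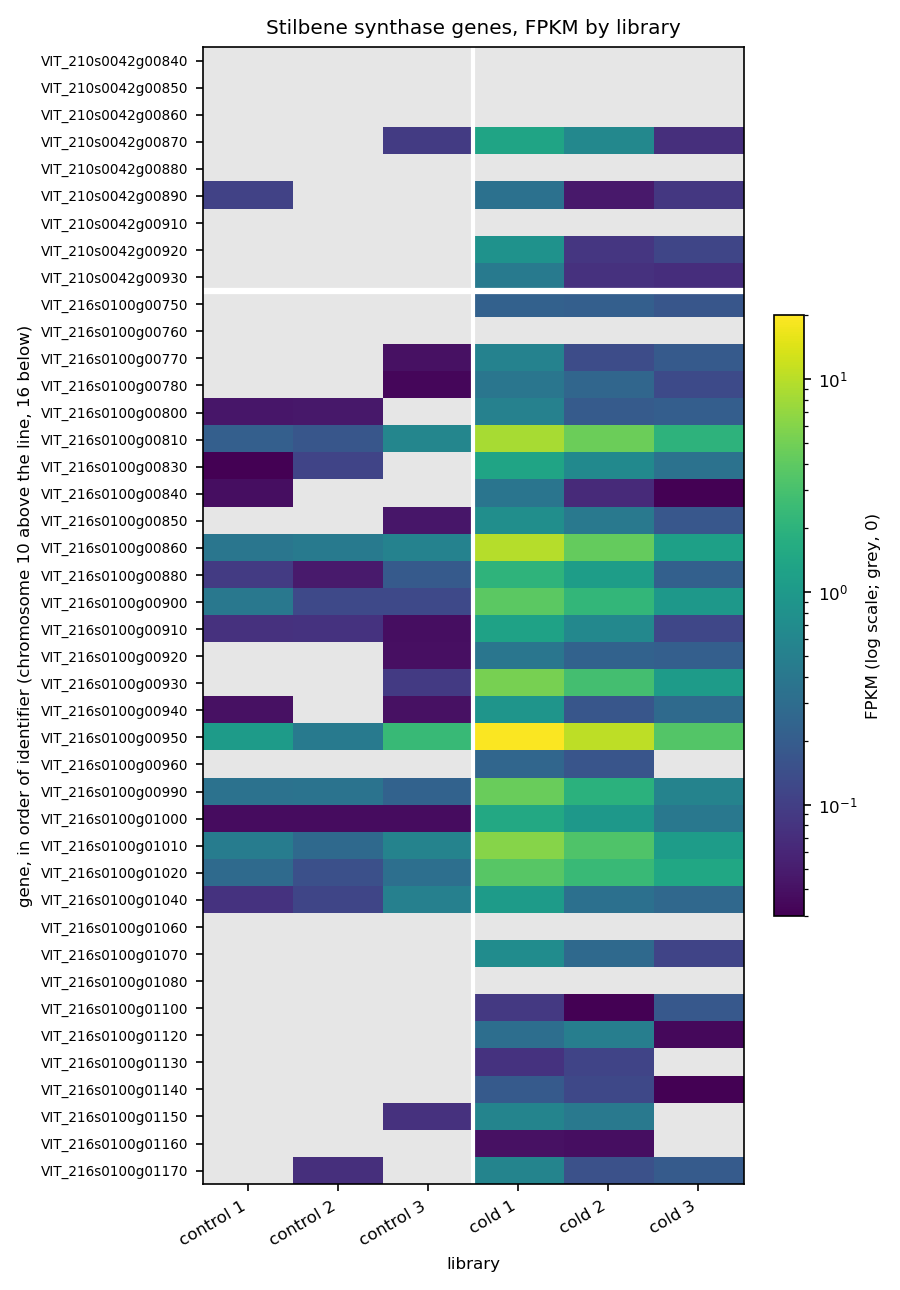
FPKM of the 42 stilbene synthase genes (rows, in order of identifier) in the 6 libraries (columns), on a logarithmic colour scale with 0 in grey. The 8 genes without reads are grey throughout, most control cells are grey or dark, and the bright rows of the cold libraries lie in the middle of the chromosome 16 array, brightest in cold library 1.

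Nearly all reads of the family came from the chromosome 16 array. Its 33 genes summed to 3.61, 2.45 and 5.86 FPKM in the control libraries and to 75.0, 39.4 and 15.2 FPKM in cold libraries 1, 2 and 3. The groups did not overlap. The means were 3.97 ± 1.73 FPKM in control and 43.2 ± 30.1 FPKM in cold (SD, n = 3 each), a 10.9-fold difference, and 6.86-fold without cold library 1. In reads, 221 in control stood against 2966 in cold. Scaled by the library totals this is 11.2-fold, with a 95% exact interval of 9.77 to 12.9. Such intervals cover counting error only and leave out the spread between libraries.

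The chromosome 10 cluster stayed near the limit of detection. In control its 9 genes together had 2 reads in library 1, 0 in library 2 and 2 in library 3; in cold they had 70, 21 and 9 reads. Summed FPKM was 0.109, 0 and 0.0925 in control and 2.95, 0.837 and 0.344 in cold. The groups did not overlap, and cold library 1 held most of the cold reads. Scaled by the library totals, the pooled cold level was 20.9-fold the control level, with a 95% exact interval of 7.91 to 78.1. The fold of the mean FPKM sums was 20.6, and 8.81 without cold library 1 and 13.7 without control library 2.

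The folds of the cluster and the array could not be told apart at this depth. The interval of the chromosome 10 fold takes in the whole interval of the chromosome 16 fold. The cluster made up 4 of 225 family reads in control (1.78%, 95% exact interval 0.486 to 4.49%) and 100 of 3066 in cold (3.26%, 2.66 to 3.95%), and these intervals overlap. By library the share was 2.74%, 0% and 2.02% in control libraries 1, 2 and 3. The 0 of 53 reads in control library 2 has a 95% exact upper limit of 6.72%. The share was 4.04%, 2.28% and 2.20% in cold libraries 1, 2 and 3. What set the groups of genes apart was their level: in the mean of the cold libraries the array summed to 43.2 FPKM and the cluster to 1.38 FPKM.

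**Figure D2:**
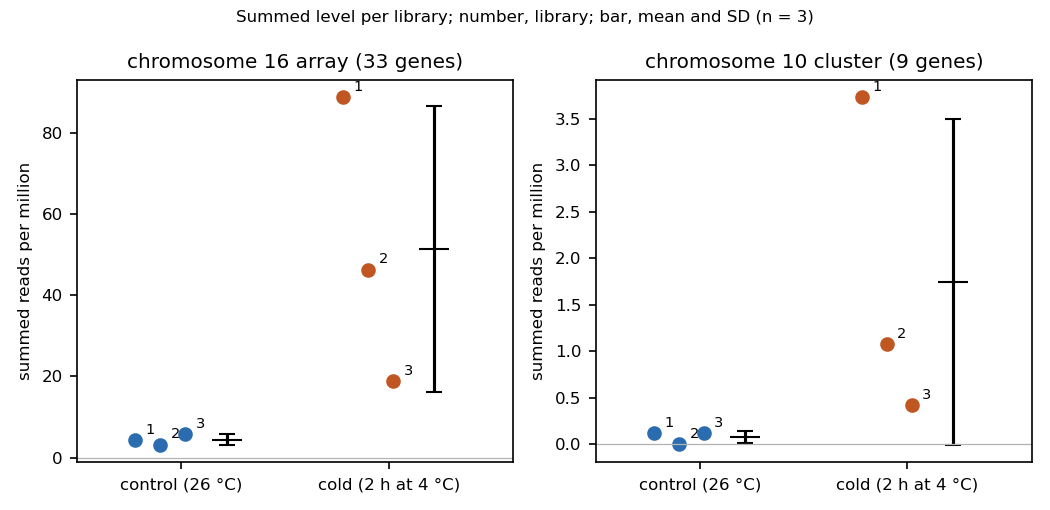
Summed RPM of the 33 genes of the chromosome 16 array (left) and the 9 genes of the chromosome 10 cluster (right) in each library, numbered 1 to 3 within control and cold, with mean and SD (n = 3) as bars; the vertical scales differ. In both, all cold libraries lie above all control libraries and cold library 1 lies highest, at 88.6 RPM for the array and 3.73 for the cluster.

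The test was limma-trend applied to log2(FPKM + 1). It took in the 17155 genes whose 6 libraries averaged 1 FPKM or more, and p-values were adjusted over all of these (Benjamini-Hochberg) and called under 0.05. Of the stilbene synthases 8 entered the test, all of the array. Of these, 7 were called higher after cold, each by at least 2-fold, and 0 lower, also at an unadjusted p under 0.05. Among all tested genes 21.0% were called higher, 6.60% higher by at least 2-fold and 13.4% lower. The median log2 change was 1.63 over the 8 genes and 0.08 over all tested genes. The filter let these genes in mostly through their cold level, so the 8 are not the family, and neither their count nor their median is a measure of it. The alternatives counted for single genes below reuse the same 6 libraries, so the calls that held in them are no independent support. The last gene inside the limit was VIT_216s0100g00900, with a mean of 1.29 FPKM, and the first outside was VIT_216s0100g00880, with 0.625 FPKM.

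VIT_216s0100g00810 and VIT_216s0100g00860 took the most reads of the family. VIT_216s0100g00810 was at 0.213, 0.173 and 0.599 FPKM in control libraries 1, 2 and 3 and at 8.58, 4.66 and 2.01 FPKM in cold libraries 1, 2 and 3. Its groups were well apart, with the lowest cold library above the highest control library. It rose by 2.05 ± 0.41 on the log2 scale (± SE; limma-trend, adjusted p = 0.01), and the call held in 13 of 13 alternatives (adjusted p 0.0037 to 0.042). VIT_216s0100g00860 was at 0.384, 0.438 and 0.531 FPKM in control and at 9.62, 4.27 and 1.21 FPKM in cold. The control libraries were close together and the cold libraries were not. It rose by 1.78 ± 0.52 (± SE; limma-trend, adjusted p = 0.039), a call that held in 3 of 13 alternatives (adjusted p 0.0055 to 0.13).

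VIT_216s0100g00930 went from hardly any reads to one of the better expressed copies. Its control reads numbered 0, 0 and 2 and its cold reads 131, 75 and 30 (libraries 1, 2 and 3), which is 0, 0 and 0.0907 FPKM against 5.24, 2.89 and 1.06 FPKM. Scaled by the library totals, the pooled difference was 98.5-fold. Its 95% exact interval of 27.0 to 819 is wide because it rests on 2 control reads. Both are in control library 3, and without that library the difference was at least 43.8-fold, against a floor of 3 reads over the other control libraries. The log2 change on the FPKM + 1 scale was 1.84 ± 0.38 (± SE; limma-trend, adjusted p = 0.012), called in 13 of 13 alternatives (adjusted p 0.0032 to 0.048). Its share of the family's reads was 0.889% in control (95% exact interval 0.108 to 3.17%) and 7.70% in cold (6.78 to 8.70%), and was 7.56%, 8.13% and 7.32% in cold libraries 1, 2 and 3. The gene passed the filter of the test through its cold level alone, and it was singled out for its share after the values were seen.

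VIT_216s0100g01020 was among the more even copies between the cold libraries. It was at 0.287, 0.145 and 0.325 FPKM in control libraries 1, 2 and 3 and at 3.69, 2.46 and 1.44 FPKM in cold libraries 1, 2 and 3. It rose by 1.45 ± 0.25 on the log2 scale (± SE; limma-trend, adjusted p = 0.0062), again in 13 of 13 alternatives (adjusted p 0.0041 to 0.029). Cold library 1 stood 2.57-fold above cold library 3 for this gene, the smallest ratio among the genes with at least 30 cold reads. Its share of the family's reads was 6.69% in cold library 1 (95% exact interval 5.56 to 7.97%) and 12.4% in cold library 3 (9.40 to 16.0%). For VIT_216s0100g00860 the shares were 13.03% (11.5 to 14.7%) in cold library 1 and 7.80% (5.4 to 10.8%) in cold library 3. Both genes were picked for these shares after their values were seen, and the spread of a share between samples was not tested.

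VIT_216s0100g00900 and VIT_216s0100g01010 rose to similar levels. VIT_216s0100g00900 was at 0.405, 0.126 and 0.125 FPKM in control and at 3.93, 2.21 and 0.955 FPKM in cold, with no overlap, and rose by a log2 change of 1.37 ± 0.34 (± SE; limma-trend, adjusted p = 0.021). The call held in 9 of 13 alternatives (adjusted p 0.0072 to 0.074). VIT_216s0100g01010 was at 0.464, 0.274 and 0.544 FPKM in control and at 6.07, 3.31 and 1.09 FPKM in cold. Its groups did not overlap and its log2 change was 1.49 ± 0.42 (± SE; limma-trend, adjusted p = 0.034), a call that held in 5 of 13 alternatives (adjusted p 0.0052 to 0.1).

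VIT_216s0100g00990 did not pass the test. Its level was 0.349, 0.353 and 0.234 FPKM in control libraries 1, 2 and 3 and 4.50, 1.92 and 0.548 FPKM in cold libraries 1, 2 and 3. The groups did not overlap, but the lowest cold value came near the control values. The log2 change was 1.16 ± 0.43 (± SE; limma-trend, adjusted p = 0.081). Without cold library 3 the gene was called (adjusted p = 0.014), and in the other 12 of 13 alternatives it was not (adjusted p up to 0.23).

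The copy with the highest FPKM was also the one with the shortest implied length. VIT_216s0100g00950 was at 1.07, 0.435 and 2.37 FPKM in control libraries 1, 2 and 3 and at 19.2, 10.5 and 3.53 FPKM in cold libraries 1, 2 and 3. These values came from 5, 2 and 11 reads and from 101, 57 and 21 reads. The groups did not overlap, and the lowest cold library lay close to the highest control library. The log2 change was 2.24 ± 0.57 (± SE; limma-trend, adjusted p = 0.024), and the call held in 8 of 14 alternatives (adjusted p 0.0084 to 0.086). The length that its values imply is 280 bases, where 32 of the 34 genes with reads have between 1106 and 2164 bases with a median of 1544. The remaining one, VIT_216s0100g00960, comes out at 616 bases, from 3, 2 and 0 cold reads, too few to fix a length firmly. On the FPKM + 1 scale VIT_216s0100g00950 had the largest log2 change of the 8, but with a pseudocount of 0.1 that of VIT_216s0100g00930 was larger (4.42 against 2.97), as it was by limma-voom (5.996 against 2.908). Scaled by the library totals, the pooled cold level of VIT_216s0100g00950 was 8.31-fold the control level. Without control library 3 it was 14.2-fold, and without cold library 1 it was 5.29-fold. In the cold libraries this gene held 24.8% of the family's summed FPKM but 5.84% of its reads. By reads, VIT_216s0100g00810 (13.5%), VIT_216s0100g00860 (11.8%) and VIT_216s0100g01010 (10.2%) led the cold libraries, and VIT_216s0100g01010 (14.7%) led the control libraries.

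**Figure D3:**
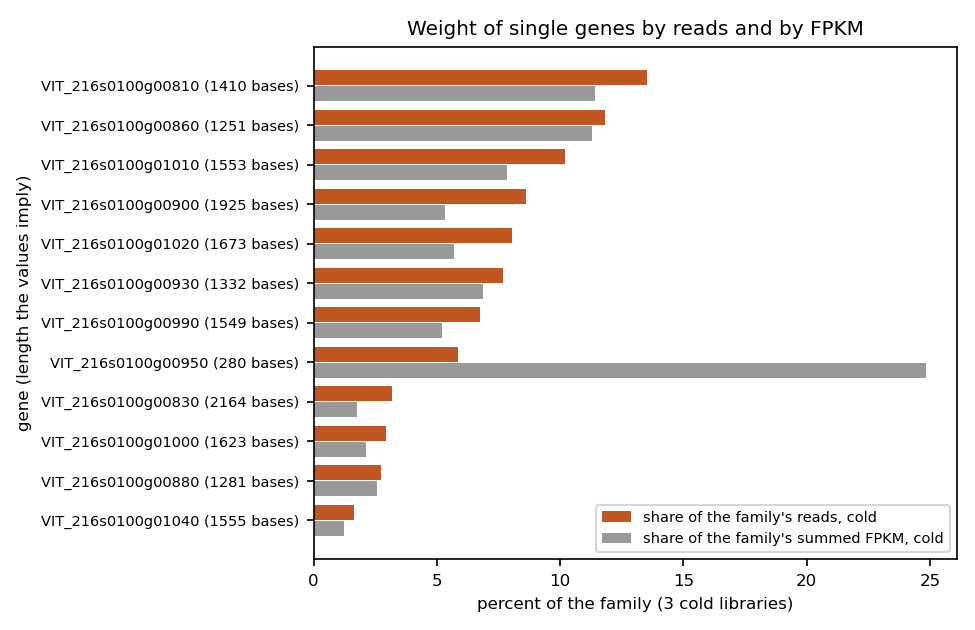
Share of the family's reads (orange) and of its summed FPKM (grey) held by the 12 genes with the most reads, over the 3 cold libraries, with the gene length the values imply. VIT_216s0100g00950, at 280 bases, holds 24.8% of the FPKM and 5.84% of the reads, while the other genes have more similar shares on both scales.

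The 8 genes had larger errors than most genes. Their standard errors ran from 0.25 to 0.57, where the median over all tested genes was 0.13. The number called changed with the library left out. Of the 8, 3 were called without control library 2 or without cold library 2, and 4 without control library 3 or without cold library 1. Without control library 1 the number was 6, and without cold library 3 it was 8. A fit with 1 library fewer has less power for every gene. The share called over all tested genes in these fits is not given here, so the changes cannot be laid to particular libraries. With the replicate number as a block the count was 4, and the log2 changes were the same.

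**Figure D4:**
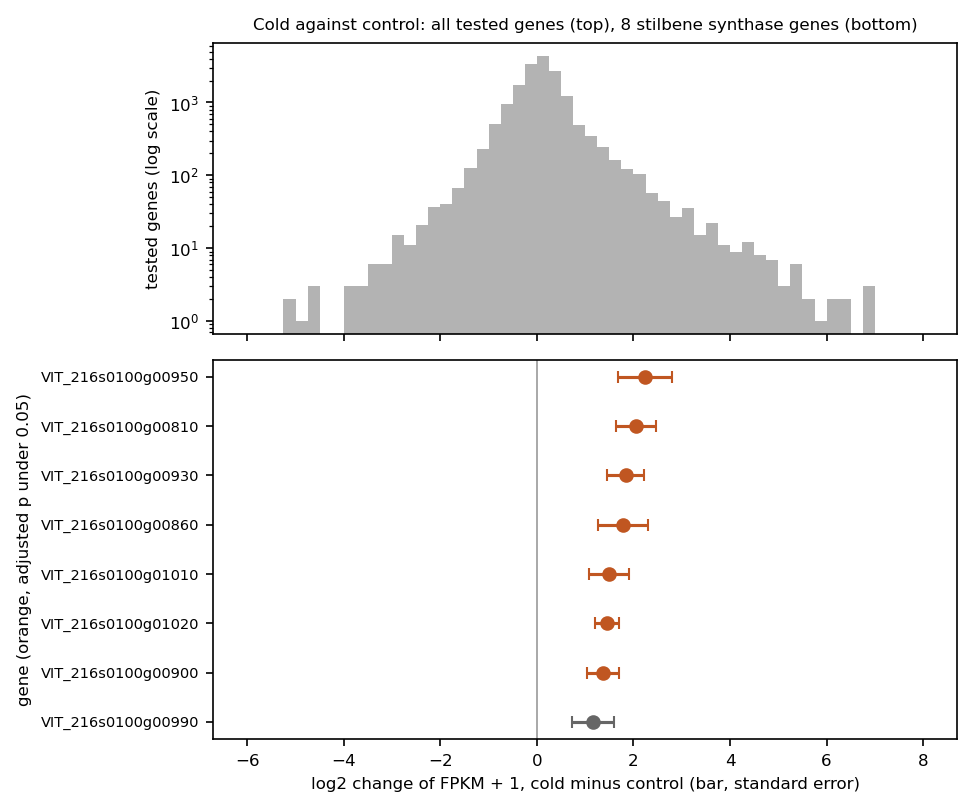
Top, number of tested genes (log scale) by log2 change of FPKM + 1, cold minus control, over 17155 genes; bottom, the 8 tested stilbene synthase genes with standard errors, in orange where the adjusted p was under 0.05. All 8 lie to the right of 0, between 1.16 and 2.24.

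Most of the family lay under the filter and had higher means in cold. Besides the 8 tested genes, 26 genes had reads, with cold means between 0.0261 and 1.14 FPKM. Together with the 8 genes without reads they summed to 0.544, 0.509 and 1.13 FPKM in control libraries 1, 2 and 3. In cold libraries 1, 2 and 3 the sums were 17.1, 8.013 and 3.67 FPKM. These sums did not overlap either, and the fold of the means was 13.1, and 8.011 without cold library 1. Of all 34 genes with reads, 34 had a higher mean in cold. For 10 of these no other direction was possible, since they had no control read. The share of all genes with a higher mean in cold is not given here. In 26 of them every cold library lay above every control library, which held for 26.4% of all genes with reads. The 26 include the 8 tested genes, for which the filter favoured this, and genes with no control read, which entered through cold reads alone.

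Tests that admitted these low genes called more genes of the family. Genes with few or no control reads entered these tests through their cold reads, so neither count is a measure of the family. With no filter on low values 12 of 34 genes were called higher (limma-trend; 15.1% of all 25054 genes with reads were), and with limma-voom on the recovered reads, for genes with at least 10 reads in all, 13 of 31 were (18.2% of all 21851 tested). Neither test called any gene of the family lower. Of the genes called higher, 6 with no filter and 4 with limma-voom had also been called by the test above. Both called 10 genes in common, and 4 genes were called by these and by the test above: VIT_216s0100g00810, g00900, g00930 and g01020. On the reads, VIT_216s0100g01000 rose from 1, 1 and 1 reads to 46, 30 and 14 reads, or by 3.90 ± 1.00 on the log2 scale (± SE; limma-voom, adjusted p = 0.025). VIT_216s0100g00750 went from 0 reads in each control library to 7, 7 and 6 reads, the most even of the cold values, with an adjusted p of 0.0062 by limma-voom. Neither test called any of the 4 chromosome 10 genes with reads.

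The 4 chromosome 10 genes differed from library to library. VIT_210s0042g00870 had 0, 0 and 2 reads in control and 33, 16 and 2 reads in cold, or 0, 0 and 0.0925 FPKM against 1.35, 0.630 and 0.0722 FPKM. Cold library 3 lay inside the control range. VIT_210s0042g00920 had no control read and 19, 2 and 3 cold reads (0.835, 0.0848 and 0.117 FPKM), and VIT_210s0042g00930 had no control read and 11, 2 and 2 cold reads (0.434, 0.0761 and 0.0698 FPKM). With 3 reads, summed over the control group, taken as the floor, these were at least 6.68-fold and at least 4.18-fold higher in cold. Without cold library 1, which held most of their reads, the limits were 2.03-fold and 1.63-fold. VIT_210s0042g00890 had 2, 0 and 0 control reads and 7, 1 and 2 cold reads, and its groups overlapped. Their adjusted p by limma-voom lay between 0.071 and 0.30, and 2 of the 4 had an unadjusted p under 0.05.

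The copies with the most control reads can be compared by their pooled reads. Pooled reads were scaled by the library totals. Among the 11 genes of the family with more than 3 control reads, the cold level was between 2.32-fold and 16.4-fold the control level. The median fold was 10.02. The lowest belonged to VIT_216s0100g01040, with 2, 3 and 13 reads in control and 31, 10 and 9 reads in cold (95% exact interval 1.33 to 4.22). Its groups overlapped, since control library 3 exceeded cold libraries 2 and 3 in FPKM. Its fold rests on control library 3: without it the fold was 5.57, and without cold library 1 it was 1.29. It made up 2.74%, 5.66% and 13.1% of the family's reads in control libraries 1, 2 and 3 and 1.79%, 1.08% and 2.20% in cold libraries 1, 2 and 3. The highest belonged to VIT_216s0100g00830, with 1, 4 and 0 reads in control and 54, 28 and 16 reads in cold (6.78 to 51.5). Without control library 2, which held 4 of its 5 control reads, its fold was 54.8, and without cold library 1 it was 10.7.

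By position, the middle of the array held most of its counted reads. The 5 listed genes of the array that were not analysed here all have running numbers above g01020. Any reads of them are missing from these counts, and a read may have been assigned to a neighbouring copy. The 17 genes from g00810 to g01020 had 195 of the array's 221 control reads and 2674 of its 2966 cold reads. Scaled by the library totals, their cold reads exceeded the control reads 11.4-fold (95% exact interval 9.90 to 13.3). The 5 genes from g00750 to g00800 had 4 control and 96 cold reads (20.04-fold, 7.58 to 75.1), and the 11 genes from g01040 to g01170 had 22 control and 196 cold reads (7.44-fold, 4.78 to 12.2). Control library 3 held 15 of these 22 reads, and without it the fold was 15.6. Without cold library 1 the folds of the middle and the last stretch were 7.30 and 4.88. The intervals of the 3 stretches overlap, so their folds could not be told apart. The stretches were drawn after the values were seen. All 8 tested genes belong to the middle stretch.

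The scaffold fields that hold the copies also hold other genes. The 84 other genes of scaffold field 0100 of chromosome 16 summed to 988 ± 89.6 FPKM in control and 1142 ± 19.2 FPKM in cold (SD, n = 3 each). Of 45 tested, 9 were called higher and 4 lower (limma-trend, adjusted p under 0.05), 2 of them higher by at least 2-fold, and the median log2 change was 0.09. In scaffold field 0042 of chromosome 10, 110 other genes summed to 518 ± 9.47 FPKM in control and 639 ± 1.96 FPKM in cold (SD, n = 3 each). Of 43 tested, 9 were called higher and 4 lower, 5 of them higher by at least 2-fold, and the median log2 change was 0.19. No copy of the chromosome 10 cluster entered this test, and the tested copies of the array passed its filter through their cold level, so they were not compared with these genes. Next to the array, VIT_216s0100g00740 had 4, 1 and 1 control reads and 1, 2 and 1 cold reads. On the other side VIT_216s0100g01210 was at 12.02, 12.7 and 13.9 FPKM in control and at 13.6, 17.0 and 12.1 FPKM in cold (log2 change 0.13, standard error 0.13, limma-trend adjusted p = 0.5).

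More copies were read after cold. At least 1 read was found for 16, 14 and 19 of the 42 genes in control libraries 1, 2 and 3 and for 34, 34 and 30 in cold libraries 1, 2 and 3. At least 10 reads were found for 2, 0 and 5 genes in control and for 26, 17 and 10 in cold. At an equal depth of 16367892 reads the expected numbers with at least 10 reads were 24.7, 15.4 and 9.75 in the cold libraries, and 1.999, 0 and 4.996 in the control libraries.

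Most copies ranked the cold libraries alike. Cold library 1 was the highest cold library for 31 of the 34 genes with reads, the exceptions being VIT_216s0100g01100, g01120 and g01130, and cold library 1 exceeded library 2 and library 2 exceeded library 3 for 25 of them. Over the 17147 tested genes outside the family cold library 1 was highest for 29.1% and this order held for 15.9%; over the 1126 genes outside the family called at least 2-fold higher the shares were 38.7% and 26.3%. For the 19 stilbene synthase genes with at least 30 cold reads, cold library 1 was highest for 19, and it exceeded cold library 3 by between 2.57-fold and 18.6-fold with a median of 4.62 in the 18 genes read in both. Over the 1126 other genes the median ratio was 1.16, and 13 of them (1.15%) reached the 5.02-fold ratio of the family's sum. Being called favours genes whose cold libraries lie close together, while the 19 genes were chosen by their reads. Over the 17147 other tested genes, called or not, the median ratio was 0.961, and 143 (0.834%) reached that of the family's sum. Copies that share reads are not independent, so these counts describe the libraries. The library with the lowest stilbene synthase level, cold library 3, was the deepest of the 6, and the part of harvest or handling in this spread was not tested.

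**Figure D5:**
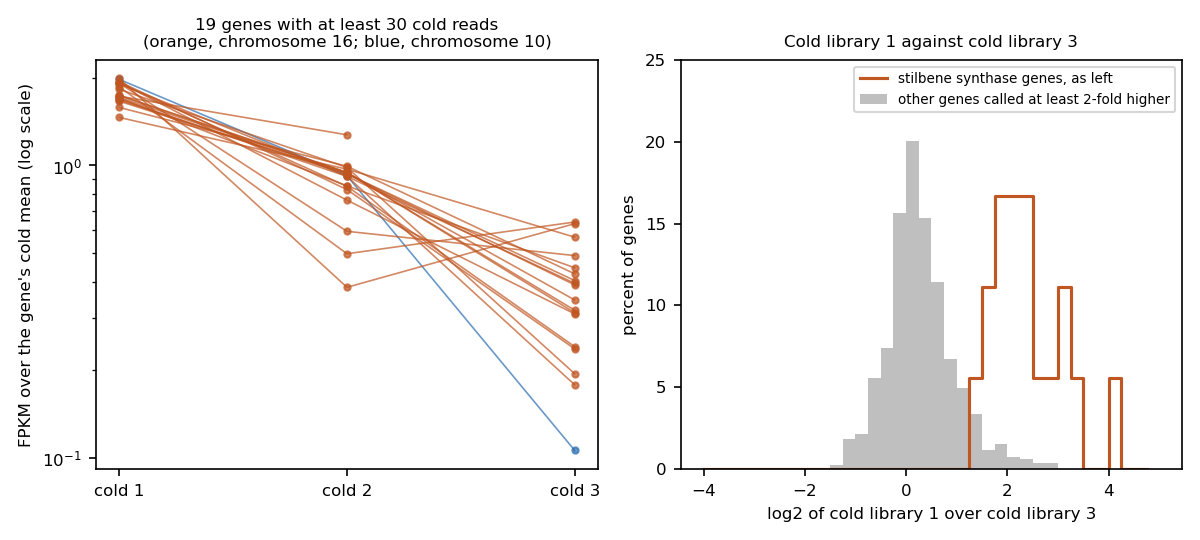
Left, FPKM of the 19 stilbene synthase genes with at least 30 cold reads in cold libraries 1, 2 and 3, each divided by the gene's mean over the cold libraries (log scale; a value of 0 is left out). Right, log2 ratio of cold library 1 over cold library 3 for the 18 of these genes read in both (orange outline) and for the 1126 genes outside the family called at least 2-fold higher (grey bars), where the medians of the ratio are 4.62 and 1.16.

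Among the control libraries the order was less even. The top control value was that of library 3 for 15 of the 34 genes, of library 2 for 6 and of library 1 for 3, and the remaining 10 genes had no control read. Control library 3 had 99 reads of the family, control library 1 had 73 and control library 2 had 53. The control library with the most stilbene synthase reads lay well below the lowest cold library, which had 410.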

How the data were processed

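The authors deposited a table of FPKM values per gene for 6 libraries. Per the submitters' processing notes, the tools were DESeq2, HTSeq, STAR, cutadapt and FastQC, with neither version nor role. For the genome build, annotation, strand setting and handling of reads that fit several genes: not given in the sources used here. The labels' protocols give Trizol extraction and a TruSeq RNA kit. All 6 columns were matched to samples by title, and 0 were left unused.

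Reads were recovered from the FPKM values as the smallest whole numbers, within 0.001 reads, that go with a whole gene length. This succeeded for 25054 of 25054 genes above 0 (100% of values), and the recovered reads made up 99.4% to 99.6% of the implied totals. Where the counts of a gene share a divisor, or few libraries have reads, counts and length may be too small. Recovery and the main test were also run on simulated data, and the outcome is not given here. The genes changed in that simulation were drawn from genes with higher means than most of this family.

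The main test was limma-trend on log2(FPKM + 1) over genes averaging 1 FPKM or more, cold against control, two-sided, with Benjamini-Hochberg adjustment; fold changes on this scale understate those of low genes. Folds of pooled reads carry exact conditional intervals, and shares Clopper-Pearson intervals, both at 95%. Values of every library are given for the called genes with a log2 change of at least 1 and the 3 genes of each cluster with the highest mean FPKM, by the rule for named genes, and for others as stated. The members and lists were chosen with earlier results of these data known. Lists of pathway enzymes and of leaf and other tissue markers, defined by product name, had no members because the table does not pair identifiers with names, so the tissue label was not checked; no sequence is shown because none was used here. Same-numbered libraries did not deviate together, so the replicate number was not used as a pairing. Software was limma 3.58.1 under R 4.3.3, and matplotlib 3.10.9, SciPy 1.17.1, pandas 2.3.3 and numpy 2.4.6 under Python 3.11.15.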

Additional observations from a re-analysis of the deposited data

How the results depend on the processing

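The log2 change was above 0 in each of 129 alternative values, and 0 genes were called lower in any setting. These values cover the 8 tested genes and the 3 chromosome 10 genes with the highest means. All reuse the same 6 libraries, and the filter let the 8 genes in mostly through their cold level. VIT_210s0042g00920 and g00930 had no control read, so their log2 change could not fall below 0. The count of 129 is therefore no independent support for the direction. The number called higher, 7 of 8 as reported, was 7 with a pseudocount of 0.1 and under median-of-ratios scaling, 4 under quantile normalization (15.5% of all tested genes called higher) and 4 with limma-voom on recovered reads (21.2%). It was 12 of 34 with no filter, 13 of 31 with limma-voom on genes with at least 10 reads, and 1 of 1 where the filter was raised to 5 FPKM. In the last 3 settings the number of members tested itself changes. With any 1 library left out it was 3 to 8, where the share over all tested genes is not given here. With the replicate block 4 of 8 were called (14.5% of all tested genes called higher); the correlations of deviations were -0.26, -0.13 and -0.28, and for 0 of 3 control libraries was the best match the cold library of that number. The cause of the lost calls was not tested. The log2 folds of the cluster sums stayed within the spread between libraries in each alternative: leaving out each library gave 2.78 to 3.85 for the array and 3.14 to 4.90 for the cluster, and their difference stayed between -1.52 and -0.36. Left-out libraries for pooled reads, and the order of the cold libraries without the family, were added after seeing the data. The limma-voom settings were chosen after seeing the data too, in place of other planned count models, which were not run on the recovered reads. The family's 225 control reads limit every fold above.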

Other observations

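Within the range of the array's running numbers, 2 identifiers that the list of stilbene synthases does not hold had values. VIT_216s0100g00870 had 0 reads in each control library and 5, 3 and 0 reads in cold libraries 1, 2 and 3, with an implied length of 108 bases, which puts it at 2.47, 1.43 and 0 FPKM. VIT_216s0100g00970, and VIT_210s0042g00900 within the chromosome 10 cluster, had no read in any library. VIT_216s0100g01220 lies beyond the last listed copy, after VIT_216s0100g01210, which was not called (log2 change 0.13, limma-trend adjusted p = 0.5). VIT_216s0100g01220 was at 0.538, 0.409 and 0.541 FPKM in control and at 1.55, 2.42 and 1.06 FPKM in cold. The difference was 0.81 ± 0.21 on the log2 scale (± SE, limma-trend, adjusted p = 0.027). Among all tested genes 21.0% were called higher, and VIT_216s0100g01220 passed the filter of the test through its cold level. Cold library 2 was its highest, unlike in most of the array.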
